A study of Arabidopsis thaliana with 11 samples.

Results

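The 25 loci described here are Arabidopsis thaliana genes known in the array's probe table only by their locus number, with a signal that is high in the leaf and low in both stem and flower. They were chosen from 11933 such loci among the 22810 probe sets of the ATH1 array. After values under 100 had been set to 100, the lowest of the 3 leaf values had to be at least 3 times the highest of the 8 stem and flower values. The leaf values and the stem and flower values therefore chose the members, and their difference is described without a test. Of the 25 probe sets, 0 carried the name suffix that marks probes shared with related transcripts.

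All plants were wild-type Columbia-0, and each array held total RNA of 1 organ. Expanding leaves (3 arrays) were taken on day 15 after germination, and the upper 2 inches of the stem, freed of siliques and pedicels (4 arrays), and flowers with closed buds (4 arrays) on day 29. The temperature was 25 °C in the light and 20 °C in the dark. Leaf had 1 growth chamber and 2 greenhouse arrays, flower 2 of each, and stem 2 chamber arrays, 1 greenhouse array and 1 of unclear site. The light period was 16 h at both sites, with none given for flower replicate 4. The chamber gave fluorescent light at 125 µmol per square metre and second. Leaf RNA was made with Trizol alone, whereas stem and flower RNA also passed a silica column, so that organ, age and preparation cannot be told apart in any comparison with leaf. The values are signal intensities of single arrays, and the number of arrays limits their precision. In whole organs, fewer cells of a type and less RNA per cell cannot be told apart.

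The leaves are the main sites of light capture and carbon fixation in the rosette, and their epidermis lays down the cuticular wax that seals the surface. Leaves also carry preformed and inducible defences, among them small antimicrobial peptides such as defensins and thionins. A gene table of assembly TAIR10.1 held all 25 loci, gave 0 of them a symbol of their own, and listed a descriptive synonym for 1, AT4G13840. This locus is CER26, whose name, ECERIFERUM 26, places it among the wax-deficient genes of Arabidopsis. Its protein takes part in the elongation of very-long-chain fatty acids for leaf wax. Neither table gives a role for the other 24, and none is given here.

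Marker genes set stem and flower apart as labelled, and no marker of leaf alone is given here. IRX15, a gene of secondary wall xylan, had a signal of 643 to 1702 in the 4 stem arrays and 8.60 to 17.3 in all others. The anther gene ATA27 reached 4687 to 5412 in flower and at most 85.0 elsewhere. The median signal per array was 192 to 251. The actin 3'/5' ratio, a measure of RNA integrity, was 1.83 to 3.29 in leaf, 2.67 to 12.2 in stem and 3.22 to 8.23 in flower, and its part in the leaf difference was not tested. The highest ratio belonged to stem replicate 3, a greenhouse array. In each organ the greenhouse arrays had higher ratios than the chamber arrays. Site and RNA integrity therefore cannot be told apart in the comparisons of site.

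Of all loci without a symbol, 0.21% met the rule for leaf, against 0.285% (34 loci) for stem and 1.13% (135 loci) for flower under the same rule. Among 1580 probe sets whose gene has a symbol, 5 met it for leaf, a share of 0.316%. They were the defensins PDF1.2 and PDF1.2b, the thionin THI2.2, the serine carboxypeptidase-like gene scpl46, and ECS1. The leaf signal was 1427, 1344 and 1490.1 for PDF1.2, and 39267, 39368 and 44324 for ECS1.

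**Figure D1:**
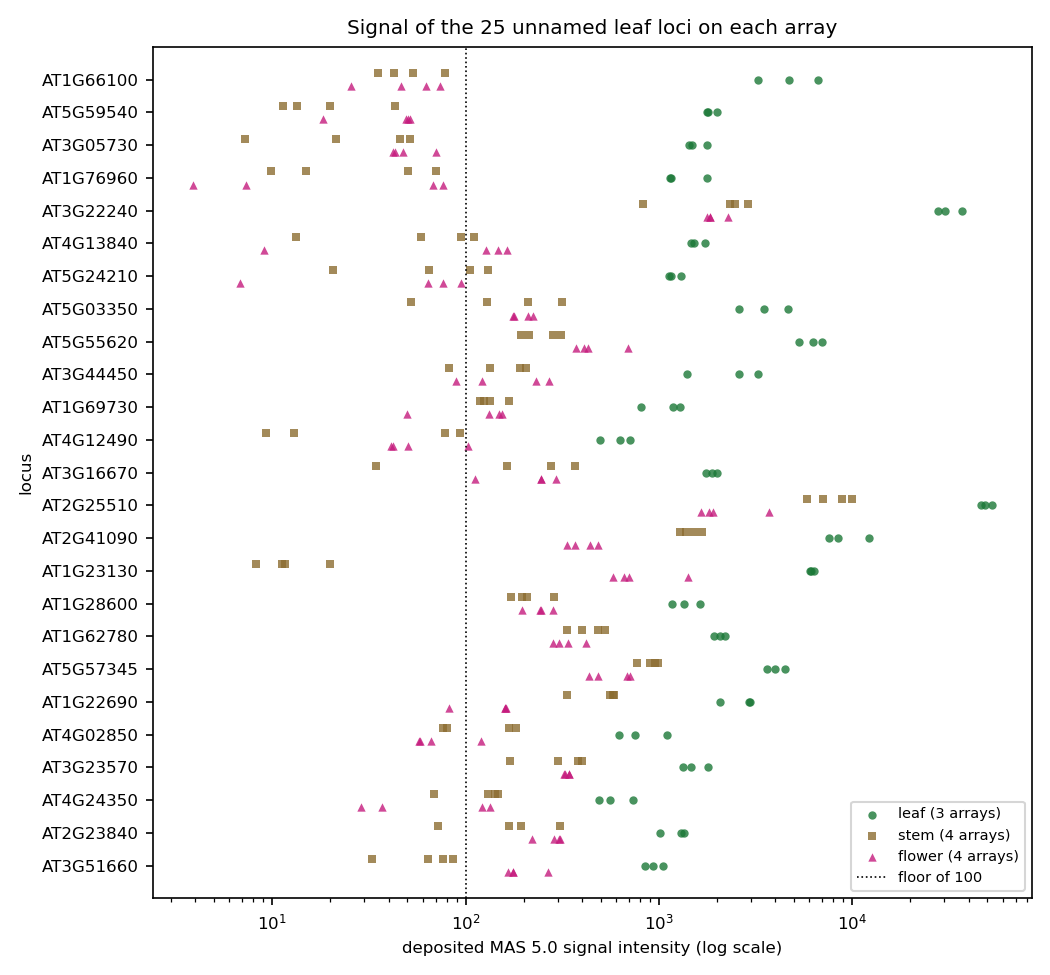
Deposited signal intensity (log scale) of each of the 25 loci on all 11 arrays, with leaf as circles, stem as squares and flower as triangles, ordered by the ratio of the lowest leaf to the highest stem or flower value. The 4 loci at the top have every stem and flower value to the left of the dotted line at 100, and further down the stem and flower points approach the leaf points.

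The loci fell into 3 kinds by what remained in stem and flower. In 4 loci no stem or flower array reached a signal of 100, in 8 loci all 8 of these arrays did, and in 13 some did.

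AT1G66100 had the largest ratio, which was at least 32.4, because its stem and flower values all lay under the floor of 100. Its signal was 6627, 3239 and 4706 in leaf, 78.1, 35.3, 42.6 and 53.5 in stem, and 62.6, 73.5, 46.1 and 25.7 in flower. The leaf arrays differed among themselves by a CV of 35.0%, and stem and flower covered the same range below the floor. AT5G59540 gave 1776, 1796 and 2000.0 in leaf, 19.9, 43.0, 11.4 and 13.5 in stem, and 49.1, 18.4, 51.8 and 50.3 in flower. Here the leaf arrays lay close together, with a CV of 6.67%, and the ratio was at least 17.8. AT3G05730 was at 1764, 1436 and 1490.4 in leaf, at 7.20 to 51.4 in stem and at 42.3 to 70.4 in flower. AT1G76960 was at 1775, 1157 and 1147 in leaf, at 9.80 to 70.0 in stem and at 3.90 to 76.0 in flower. Both stayed under 100 in every stem and flower array, with ratios of at least 14.4 and 11.5, and for all 4 loci described so far the values under 100 have no order.

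AT3G22240 kept a clear signal in the other organs. It gave 36777, 30116 and 27887 in leaf, 2485, 2338, 2905 and 825 in stem, and 2286, 1779.5, 1828 and 1848 in flower. Stem replicate 4 was the lowest of the 11 arrays, and the flower arrays lay within the stem range. Mean stem signal was 6.77% and mean flower signal 6.13% of mean leaf signal. AT5G55620 was at 5278, 7008 and 6261 in leaf, 193, 313, 214 and 284 in stem, and 694, 375, 409 and 429 in flower. Every flower array of this locus was above every stem array in the deposited signal, which was not so after normalisation.

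CER26 (AT4G13840) had 1519.5, 1738 and 1468 in leaf, a mean of 1575 ± 143 (SD, n = 3). In stem it was at 110.5, 95.1, 58.5 and 13.3, and in flower at 148, 128, 164 and 9.10. Stem replicate 4 and flower replicate 4 were the low arrays, and in 4 of the 8 arrays the signal reached 100.

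The ratio was also above 5 for AT5G24210, AT5G03350 and AT3G44450. AT5G24210 was at 1305, 1161 and 1126 in leaf, and at 20.7 to 131 in stem and 6.80 to 95.2 in flower. AT5G03350 gave 4668, 3500.0 and 2582 in leaf, 317, 210.0, 129 and 52.1 in stem, and 211, 224, 178 and 176 in flower. AT3G44450 was the least even in leaf, with 1405, 3272 and 2611 (CV 39.0%), against 82.4 to 206 in stem and 89.1 to 269 in flower. In all, 10 loci had a ratio of at least 5, and the median over the 25 was 4.76. AT1G69730 (809 to 1282 in leaf) and AT4G12490 (496 to 705 in leaf) came next, at 4.85 and 4.84.

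Among the loci with ratios between 3 and 5, several kept a signal above 100 in every stem and flower array. AT1G28600 was at 1172, 1353 and 1638 in leaf, 172 to 288 in stem and 195 to 282 in flower. AT3G23570 was at 1334, 1474 and 1787 in leaf, 169.6 to 400.5 in stem and 321 to 344 in flower, so that its flower arrays fell inside the stem range. AT1G62780 was at 1939, 2063 and 2200.0 in leaf, 337 to 523 in stem and 283 to 419 in flower. The first and second of these were not called apart between flower and stem, and AT1G62780 is taken up again with that contrast. AT4G02850 was less steady, with 621, 756 and 1102 in leaf (CV 30.0%), 76.2 to 182 in stem and 57.3 to 120.2 in flower. AT4G24350 was at 558, 491 and 735 in leaf, 68.3 to 148 in stem and 28.9 to 134 in flower. In both, some stem and flower arrays lay under the floor. AT5G57345 was at 3966, 4476 and 3612 in leaf, with its lowest leaf value 3.67 times its highest stem value.

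Near the threshold the organs were less far apart. Just inside it stood AT4G24350 at 3.32, AT2G23840 at 3.29 and AT3G51660 at 3.19, and just outside it AT5G42070 at 2.96, AT5G44580 at 2.94 and AT4G16980 at 2.91. AT2G23840 had 1014, 1301 and 1349.7 in leaf against 71.8 to 308 in stem and 219 to 308 in flower. AT5G42070, which missed the threshold, had 1765, 1759.6 and 2013 in leaf against 437 to 556 in stem and 290.5 to 595 in flower. In both loci the leaf arrays lay above every stem and flower array.

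The choice of members depended on the scaling. The labels describe a scaling of each array to the glycolytic gene GapC, whose deposited signal ran from 10659 to 14103 in leaf, from 7506 to 9116 in stem and from 6316 to 9475 in flower. Scaled in that way, 12 of the 25 loci met the rule and 13 did not, and their ratios ran from 1.43 for AT3G51660 to 19.5 for AT1G66100. The 11 loci with the largest ratios in the deposited values were among the 12, together with AT3G16670. The lowest leaf value remained above the highest other value in all 25. The GapC signals differed by less than the factor that the rule required, so this was fixed beforehand.

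**Figure D2:**
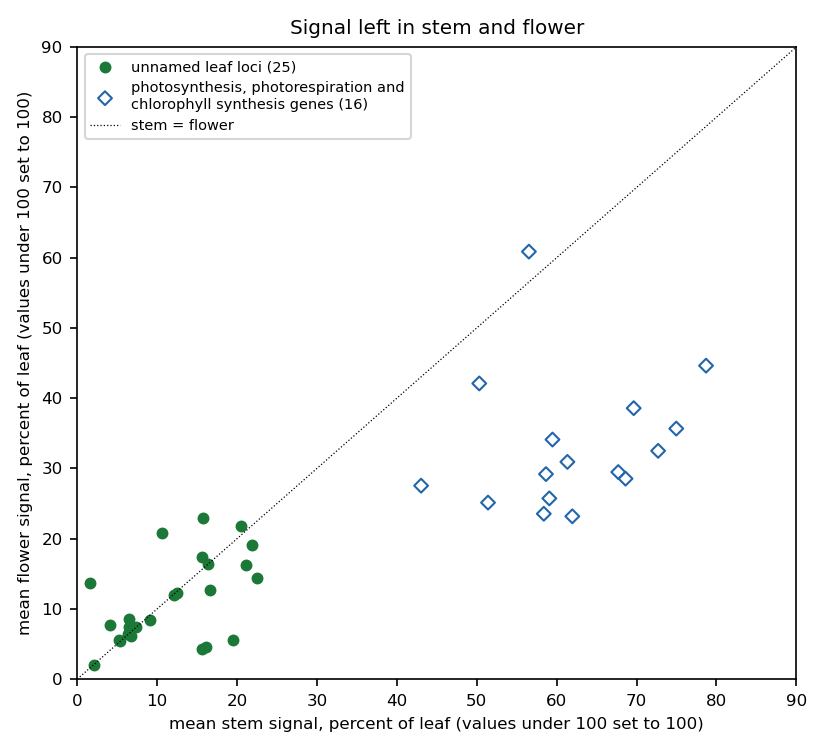
Mean stem signal against mean flower signal, each as a percent of the mean leaf signal of the same gene with values under 100 set to 100, for the 25 loci (filled circles) and 16 genes of photosynthesis, photorespiration and chlorophyll synthesis (open diamonds). The loci reach at most 22.5% in stem and 22.9% in flower, and the diamonds lie between 43.0% and 78.7% in stem.

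Genes of photosynthesis, whose mean signal was also highest in leaf, kept far more of it in the other organs. The lists used for this comparison held 16 genes with a probe set of their own, from light harvesting, the Calvin cycle, photorespiration and chlorophyll synthesis. Their mean stem signal was 43.0 to 78.7% of leaf (median 60.4%), and their mean flower signal 23.2 to 60.9% (median 30.2%). For rubisco activase, RCA, it was 59.1% in stem and 25.7% in flower. In some of these genes single stem arrays reached the leaf range, and in others none did. SBPASE was at 15982 to 21843 in leaf and up to 22110 in stem. PSBY was at 23869 or more in leaf and at most 14199 in stem. With values under 100 set to 100, the stem share over the 25 loci was 1.63 to 22.5% (median 12.1%) and the flower share 2.06 to 22.9% (median 8.56%). For the 17 loci with an array under 100 this share is an upper bound in the organ concerned. The rule itself limits these shares, and they are given as a description.

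The contrast of flower with stem was not used to choose the loci and compares organs of the same age and RNA preparation. Of the 25 loci, 5 differed between the organs, and the remaining 20 missed the threshold. In flower 3 were lower, against 8.10% of all probe sets, and 2 were higher, against 9.85%. A locus was called when its adjusted p in limma was under 0.05 and its log2 fold change at least 1 in size. The share of 20.0% stood beside 18.0% of all 17526 probe sets tested. Flower and stem arrays did not overlap in 6 of the 25 loci, or 24.0%, against 33.1% of all probe sets. All 25 loci passed the filter on low signal, which each could pass through its leaf arrays alone, and in 4 of them every value of this contrast lay under 100.

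AT2G25510 had a leaf signal of 48898, 46098 and 52886. Its stem signal was 8899, 7076, 9930.2 and 5845, and its flower signal 1649.7, 1902, 3693 and 1820.1. The 3 organs formed separate steps, with stem at 16.1% and flower at 4.60% of leaf. The normalised signal was 3.33-fold lower in flower than in stem, with a log2 fold change of -1.74 ± 0.24 (SE, adjusted p = 9.2e-05, limma).

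AT2G41090 showed the same steps, at 12202, 8402 and 7582 in leaf, 1679, 1281, 1383 and 1512 in stem, and 334, 370.1, 486 and 438 in flower. No flower array reached the lowest stem array, and the log2 fold change in flower was -1.88 ± 0.18 (SE, adjusted p = 2.9e-06, limma). AT1G22690 followed with 2078, 2944 and 2920.3 in leaf, 580.5, 561, 585 and 333 in stem, and 161, 160.5, 81.8 and 161 in flower, a log2 fold change of -1.89 ± 0.22 (SE, adjusted p = 2.1e-05, limma). Stem replicate 4 was the lowest stem array and flower replicate 3 the lowest flower array of this locus. AT1G22690 also stands on the list of guard cell lineage markers used here, which was drawn up from general knowledge, and neither table annotates the locus as such a marker. Of the other genes on that list FAMA, a transcription factor of guard cell formation, had a signal of 304 to 329.7 in leaf, 140.5 to 272 in stem and 198 to 235 in flower. Its log2 fold change between flower and stem was -0.20 ± 0.20 (SE, adjusted p = 0.46, limma), SPCH was at most 26.0 in stem and 118.8 in flower, MUTE was at most 72.2 in any array, and the part of these cells in the result was not tested.

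AT1G23130 was the reverse case. It gave 6023, 6315 and 6097 in leaf, the most even of all 25 loci with a CV of 2.47%, and 1417, 661, 579 and 698 in flower. In stem it was at 11.7, 8.20, 11.2 and 19.8, far below the floor, with leaf above flower and flower above stem in every array. The log2 fold change of flower over stem was 4.14 ± 0.25 (SE, adjusted p = 3.4e-08, limma). Because the stem values lay near 0 its size rested on the pseudocount, and it was 5.85 with a pseudocount of 1 and 2.93 with 100.

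AT3G51660 was also higher in flower, with 166, 176, 176 and 266 against 76.0, 86.2, 32.7 and 63.7 in stem and 1046, 848 and 929 in leaf. The log2 fold change of 1.01 ± 0.22 stood just past the threshold (SE, adjusted p = 0.0028, limma). All 4 stem values lay under 100, so its size too rested on the pseudocount. The call was lost without stem replicate 3 (0.83), without flower replicate 4 (0.88) and with a pseudocount of 100 (0.67). The fold also varied with the scaling, at 1.25 with the trimmed mean alone and 1.29 with each array scaled to GapC.

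The same contrast was read within each site. In the growth chamber arrays alone (2 of each organ) the log2 difference of flower and stem was -2.13 for AT2G25510, -2.06 for AT2G41090, -1.84 for AT1G22690, 4.56 for AT1G23130 and 0.62 for AT3G51660. In the greenhouse arrays (2 flower and 1 stem) it was -1.67, -1.65, -2.33, 3.93 and 1.70 in the same order. The flower and stem arrays of all 5 did not overlap in normalised signal, so the direction could not differ at either site. These values are a description.

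Another 4 loci had an adjusted p under 0.05 and a fold too small for a call. AT5G57345 was at 985, 954, 904 and 770.3 in stem and 709.6, 486, 686 and 437 in flower, with no overlap and a log2 fold change of -0.74 ± 0.18 (SE, adjusted p = 0.005, limma). AT1G62780 stood at -0.58, AT4G02850 at -0.78 and AT5G55620 at 0.60. AT4G24350, at -0.80 ± 0.34 (SE, adjusted p = 0.08, limma), was called without stem replicate 3 or flower replicate 3 (-1.01 and -1.03), and AT4G02850 with a pseudocount of 1 (-1.04). CER26 was at 0.20 ± 0.46 (SE, adjusted p = 0.77, limma). Over the 25 loci the median log2 fold change was -0.14, and over all probe sets -0.03.

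**Figure D3:**
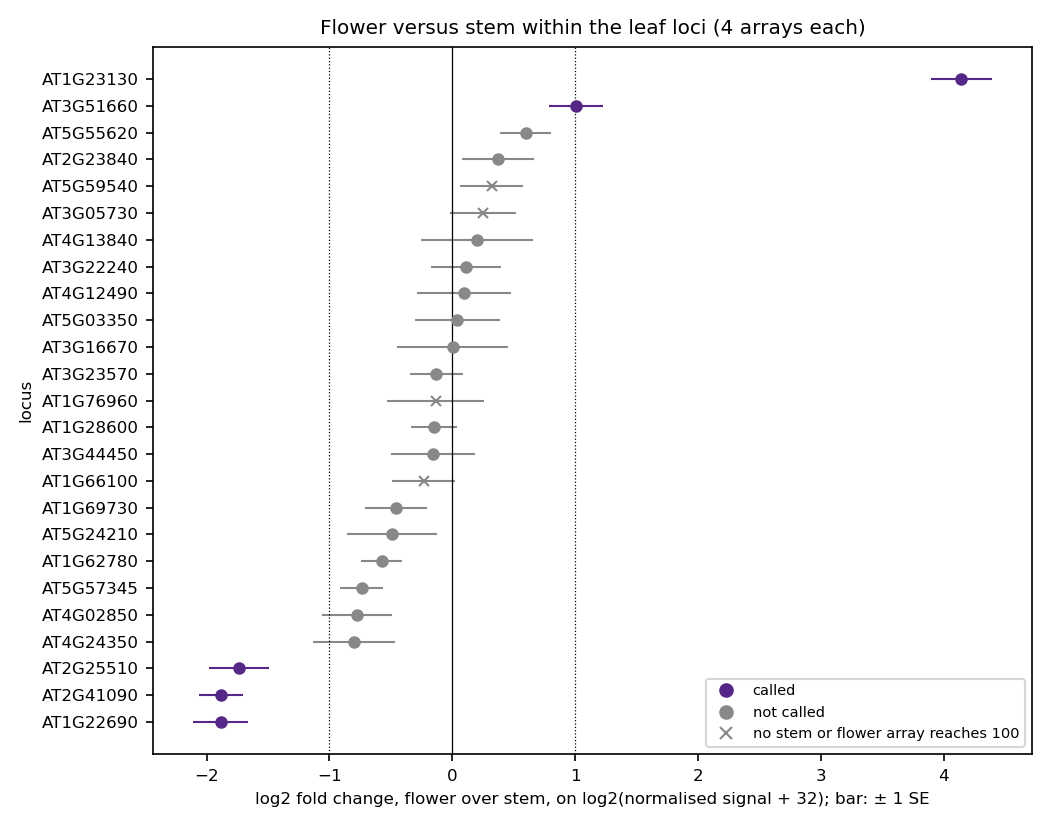
Log2 fold change of flower over stem for each of the 25 loci, with bars of ± 1 SE from the limma fit to 11 arrays, called loci in purple, and crosses for loci in which no stem or flower array reached a signal of 100. AT2G25510, AT2G41090 and AT1G22690 lie furthest to the left, AT1G23130 lies at 4.14, and most of the others lie within 1 log2 unit of 0.

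The other fixed lists give the frame for this contrast. Of the photosynthesis genes LHCB4.2, a light-harvesting protein, and PSAE1, a photosystem I subunit, fell in flower by 1.24 and 1.03 log2 units (2 lower of 6 tested). HPR of photorespiration fell from a signal of 7290 to 12742 in stem to 3129 to 4145 in flower (1 lower of 4). The other genes tested from these lists were at -0.41 to -0.87. Their adjusted p was 0.00048 to 0.019 (limma), with a fold too small for a call. The Calvin cycle list had 0 called of 3. Its genes RCA, SBPASE and PRK were at -0.87, -0.87 and -0.76, with adjusted p of 0.0033, 0.0017 and 0.00065 (limma) and a fold too small for a call. The chlorophyll synthesis list also had 0 called of 3, with adjusted p of 0.29 to 0.64 (limma). In the glucosinolate list BCAT4 fell by 2.19 (1 lower of 3), and in the defence list THI2.1 rose by 6.27 (1 higher of 4). UGT74B1 of the glucosinolate list was at -0.76 (adjusted p = 0.025, limma), a fold too small for a call. Among marker lists TRY, a regulator of trichomes, rose from 81.6 to 188.5 in stem to 286 to 588.5 in flower (1 of 1), YAB3, a gene of leaf polarity, by 2.35 (1 higher of 2), all 3 secondary wall genes fell and all 3 flower and tapetum genes rose. The guard cell list had 1 lower of 2, which is AT1G22690 itself, listed without annotation in either table. The companion cell and root hair lists had no gene with a probe set of its own, and the meristem list had 1, CLV3, which was not tested and reached at most 66.4 in any array.

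Site was the other comparison that the rule had not used. With organ as a covariate, 0 of the 25 loci differed between greenhouse and growth chamber by limma, as did 0% of all probe sets. An unadjusted p under 0.05 in limma was found for 4 of the 25 loci, and for 1945 of all 17526 probe sets. Of those 4, AT1G66100 and AT3G05730 had no stem or flower array at 100. The log2 differences ran from -0.55 for AT5G03350 to 0.56 for AT3G44450, leaving aside the 4 loci without a stem or flower value of 100, and the lowest adjusted p was 0.31. Stem replicate 4 was left out because its title code and its growth text name different sites. The fixed lists had 0 called genes as well.

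Because the loci are strong in leaf, the site difference was also read in leaf alone, with 2 greenhouse arrays and 1 chamber array. By limma 0 of the 25 loci were called, against 0.234% of all probe sets (0.160% higher and 0.0742% lower in the greenhouse). AT2G41090 was at 12202 in the chamber leaf and at 8402 and 7582 in the greenhouse leaves. Its log2 difference was -0.65 ± 0.22 (SE). AT3G44450 went the other way, from 1405 in the chamber to 3272 and 2611 in the greenhouse, at 0.99 ± 0.58 (SE, adjusted p = 0.62, limma). AT1G66100 was at 6627 in the chamber and 3239 and 4706 in the greenhouse, at -0.70 ± 0.38 (SE, adjusted p = 0.58, limma). With 1 chamber leaf, which was assumed to vary like the other arrays, the standard errors of the log2 difference were 0.20 to 0.69.

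The chamber leaf was the highest of the 3 leaf arrays in 8 loci and the lowest in 12. The same count was not made over all probe sets, and these numbers are a description. The CV over the leaf arrays ran from 2.47% to 39.0%, with a median of 14.9%. The difference between the site effects in leaf and in flower was called in 0 of the 25 loci by limma. Over all probe sets the share was 0.137% (0.131% higher and 0.00571% lower in leaf). AT2G41090 stood at -1.02 ± 0.28 (SE) and AT1G22690 at 0.86. AT1G76960 stood at -1.87, but its flower values all lay under 100.

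**Figure D4:**
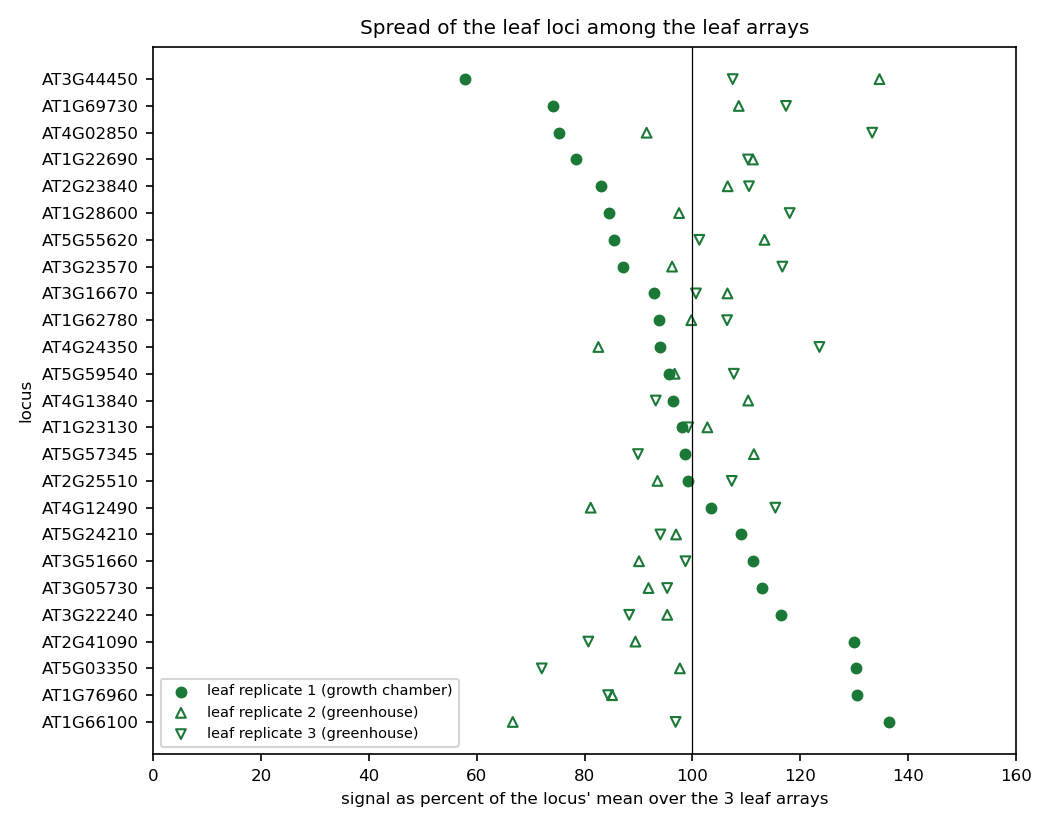
Signal of each of the 25 loci in the 3 leaf arrays as a percent of their mean, with the growth chamber array as a filled circle and the greenhouse arrays as open triangles. AT3G44450 at the top is lowest in the chamber array, AT1G66100 at the bottom is highest there, and AT1G23130 in the middle hardly varies.

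The 25 loci were spread over the genome, with 7 on chromosome 1, 3 on chromosome 2, 6 on chromosome 3, 4 on chromosome 4 and 5 on chromosome 5. None of their 50 nearest protein-coding neighbours in the TAIR10.1 gene table was itself a member. Only a neighbour without a symbol and with a probe set of its own could be one, and 0.21% of such loci met the rule. A probe set of its own was paired with 25 of these neighbours. In 5 of them, or 20%, the lowest leaf value was above the highest stem or flower value, against 7.22% of all probe sets with 1 gene. A ratio of 2 or more was found in 0 of them, against 0.844% of all. Neighbours are few and share the arrays with the loci, and the count is a description.

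AT1G22700, the neighbour of AT1G22690, had the largest ratio of these, 1.77, with 1109.7, 1093 and 1058 in leaf, 371 to 598.5 in stem and 382 to 436 in flower. AT3G16660, next to AT3G16670, had 336, 353 and 387 in leaf, and at most 89.2 in stem and 226 in flower. AT3G16670 itself was at 1746, 2002 and 1893 in leaf, 34.5 to 367 in stem and 112 to 294 in flower. AT1G28610 beside AT1G28600 and AT2G25520 beside AT2G25510 had ratios of 1.28 and 1.04. AT1G66090, beside AT1G66100, had 496, 352 and 633 in leaf and at most 272 elsewhere. At AT1G62780 and AT5G57345 the measured neighbours were at most 0.34 by the same ratio, each with its highest signal in a stem array. The locus AT2G41090 lies next to TCH3, a touch-induced gene for a calmodulin-like protein, for which no single-gene probe set was used here.

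**Figure D5:**
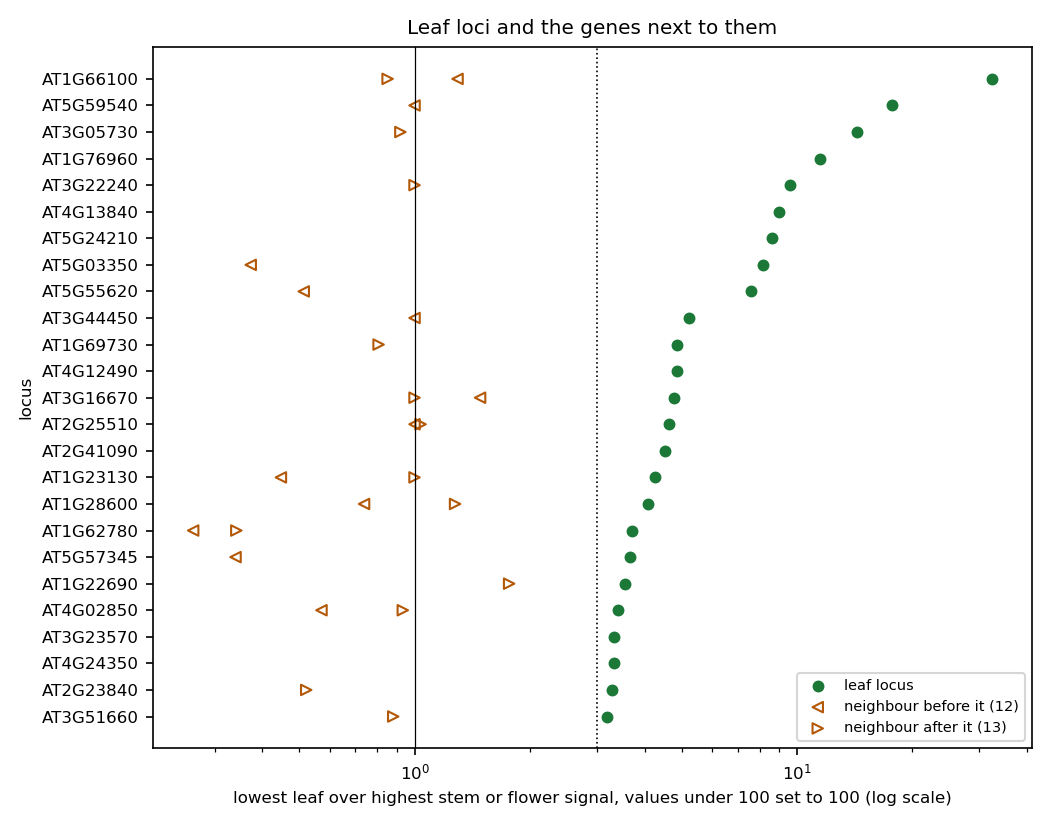
Ratio of the lowest leaf to the highest stem or flower signal, with values under 100 set to 100 (log scale), for each of the 25 loci (filled circles) and the nearest protein-coding gene on either side that had a probe set of its own (open triangles, 25 in all). Every triangle lies to the left of 2, and every circle to the right of the dotted line at 3.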

How the data were processed

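The authors analysed scanned ATH1 arrays with Microarray Suite 5.0 at a target intensity of 500, per the labels, and deposited 1 signal intensity per probe set and array. Each deposited column had a 2% trimmed mean near 500, and the GapC scaling to 8500 that the labels describe had not been applied to the intensity values. Members were found on these values. For tests, each array was brought to a trimmed mean of 500, followed by quantile normalisation and log2(value + 32). Without the 64 control probe sets, 17526 probe sets with at least 100 in at least 3 arrays were tested with limma 3.58.1 in R 4.3.3 (lmFit, eBayes with trend), two-sided, with Benjamini-Hochberg adjustment over all of them. Folds on this scale understate the change of weak signals. Flower against stem was fitted to 11 arrays, and site to 10, without stem replicate 4.

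The probe table paired 13513 probe sets with 1 gene, 503 with several and 8730 with no gene. The members, the gene lists and the rules were chosen with earlier results of these data known. Members named were the 12 with the largest ratio, those at the threshold, called ones, and others for their values. Grouping by product text was not possible with the tables used here, and no sequences were used. The lists covered light harvesting, Calvin cycle, photorespiration, chlorophyll, glucosinolates, defence and cell type markers. Nothing in the labels ties replicates to separate plants or pools, and a p-value here reflects only the spread among these arrays, which may be technical. Alternatives were other scalings, pseudocounts, filters, no trend, site as a covariate, a replicate block, and leaving out each array.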

Additional observations from a re-analysis of the deposited data

Results flagged for a closer look

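Within the stem or flower group of a locus, 9 of 38 groups of 4 arrays with a value of at least 100 held 1 array far from the other 3. The share over all probe sets was not determined, and the count is a description. Flower replicate 1 stood high for AT3G22240 (2286), AT5G55620 (694) and AT1G23130 (1417). Flower replicate 4 stood high for AT4G12490 (102), AT4G02850 (120.2) and AT3G51660 (266). In AT4G12490 and AT4G02850 it was the only flower array to reach 100, so that the flagged value itself brought the group in. Flower replicate 3 stood high for AT2G25510 (3693) and low for AT1G22690 (81.8). The only stem array singled out was stem replicate 4, low for AT1G22690 (333).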

How the results depend on the processing

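The number of members was 25 in the deposited values and 12 with each array scaled to GapC, 101 with a ratio of 2 and 10 with a ratio of 5. Leaving out 1 array gave 25 to 41 members, the highest without leaf replicate 1. Dropping an array can only loosen the rule, so that no member could be lost in this way. Quantile normalised values gave 26, a floor of 50 gave 27 and a floor of 200 gave 23. The count of 5 loci called between flower and stem stayed at 4 to 6 under all 21 alternatives, and at 4 to 6 when 1 array was left out. AT3G51660 was the one call lost under any of them. With a replicate block 5 loci were called between flower and stem. For site 0 were called with the block. Only the arrays of replicate 2 then came from both sites, so that this fit could say little about site. The deviations of same-numbered arrays of different organs had correlations of -0.16 to 0.15 over 10 pairs. The 4 stem and flower pairs were at 0.089 to 0.15, with 3 above 0.1, and each of these 8 arrays correlated best with its own number, a hint from the data and not from the design. Not every pair was above 0.1, and the numbers were not taken as pairs. No member was called for site, for site in leaf or for the difference of site effects under any alternative run. Over all probe sets, site gave 0 calls (14 without leaf replicate 1), site in leaf gave 41 (1 to 72), and the difference of site effects 24 (1 to 75). The site effect in leaf could not be fitted without leaf replicate 1. Signals under 100 limit the reading of stem or flower for 17 of the 25 loci, 4 of them in all 8 arrays.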
